A study of Mus musculus with 48 samples.

Results

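GABAergic-only cells of the embryonic mouse hypothalamus were compared between embryos that lacked Eed in the central nervous system and control embryos. A cell was counted as GABAergic-only when it held at least 2000 UMIs (unique molecular identifiers, each 1 counted mRNA molecule), at least 1 UMI of Slc32a1, the transporter that loads GABA into synaptic vesicles, and no UMI of Slc17a6, the vesicular glutamate transporter of hypothalamic glutamatergic neurons. Cells that held 3 or more of 9 genes of endothelial cells, fibroblasts and microglia (Cldn5, Pecam1, Flt1, Col1a1, Col1a2, Col3a1, C1qa, C1qb and Csf1r) were left out, which removed 566 cells, and 2450 cells lay under the UMI minimum. The rule found 1914 GABAergic-only cells among the 14121 cells in the table, or among the 11105 cells that passed the UMI minimum and the marker filter. Of these 1914 cells, 1333 came from control embryos and 581 from Eed-cKO embryos.

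The cells came from the dissected hypothalamus of embryos at E18.5, captured in droplets and counted from the 3′ end of the transcript. Control embryos were Eed fl/fl, and Eed-cKO embryos were Eed fl/fl with Sox1-Cre, so that both groups carried the floxed allele and the mutants alone carried Cre. Sox1-Cre acts in the progenitors of the central nervous system, so neurons and astrocytes of the mutant hypothalamus come from a lineage in which Cre was active, unlike microglia and vascular cells. There were 6 control embryos (22 libraries) and 9 Eed-cKO embryos (26 libraries), and the embryo was the replicate. Both sexes were present in each group, with more males than females in control and more females than males in Eed-cKO. The first number in the sample names, whose meaning the labels do not give, took 4 values in control and 6 in Eed-cKO with none in both, so that what it stands for and the genotype cannot be told apart.

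Polycomb repressor complex 2 (PRC2) places the repressive trimethyl mark of Polycomb on histone H3, and Eed is the core subunit that binds this mark and is needed for the activity of the complex. In the brain the complex is best known for keeping the Hox genes, which give position along the body axis, silent in front of the hindbrain. GABAergic neurons are the main inhibitory neurons of the hypothalamus, where they include feeding, sleep and neuroendocrine neurons, and many of those of the forebrain depend on the transcription factors of the Dlx family.

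The control embryos gave 164 to 255 GABAergic-only cells each (median 233.5), and the Eed-cKO embryos 14 to 106 (median 74). The summed UMIs per embryo ran from 856927 to 1770107 in control and from 52231 to 596210 in Eed-cKO, so that the mutant levels were measured with less precision. The cells were also shallower in the mutant, with median depths of 4549 UMIs against 5361 in control. The 1914 cells carried 1911 distinct barcodes, of which 3 occurred in more than 1 library. A single control library held 1207 cells against 465 in the next largest and gave 153 of the GABAergic-only cells.

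The genes of the rule are described here without a test. In control, 41.9% of GABAergic-only cells held exactly 1 Slc32a1 UMI and 32.9% held 3 or more, whereas in Eed-cKO 60.4% held 1 and 16.01% held 3 or more. Just outside the rule were 145 control and 316 Eed-cKO cells with Slc32a1 that held a single Slc17a6 UMI, and 144 control and 93 Eed-cKO cells that would have qualified but for the UMI minimum. Among the cells removed as non-neural, 7.11% in control and 11.9% in Eed-cKO held an Slc32a1 UMI, at median depths of 5213 and 5335 UMIs. A larger share of the mutant than of the control cells thus lay at the minimum of 1 Slc32a1 UMI.

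Markers that the rule did not use were checked in the same cells. Gad1, an enzyme of GABA synthesis, was read in 89.0% of the control and 83.1% of the mutant GABAergic-only cells, against 13.7% and 37.3% of glutamatergic-only cells, which held Slc17a6 but no Slc32a1. The second GABA enzyme, Gad2, was detected in 74.6% and 60.4%, and Stmn2, a microtubule regulator of neurons, in 99.2% and 98.1%. The label of GABAergic neurons was therefore borne out by their markers in both genotypes.

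GABAergic-only cells were a smaller share of the hypothalamic cells in the mutant, while cells that held both transporter genes were a larger share. The GABAergic-only share was 23.6% ± 3.54 (SD, n = 6) in control and 10.51% ± 1.64 (n = 9) in Eed-cKO, with embryos from 17.9% to 27.3% and from 8.11% to 12.4%, so that the genotypes did not overlap. The difference was -13.1 percentage points, and it is given with no test, as are the other shares below, since the classes are made of the genes of the rule. Cells with both genes made up 5.16% ± 2.89 in control and 19.2% ± 4.42 in Eed-cKO. In 1 control embryo, which holds the largest library, this share was 10.99%, and without that library the control mean was 4.04%. Glutamatergic-only cells made up 43.5% ± 2.03 and 38.5% ± 3.50.

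All Slc32a1-positive cells, whatever their Slc17a6, made up 28.8% ± 3.79 of control and 29.7% ± 4.91 of Eed-cKO cells (SD, n = 6 and n = 9), and the embryos of the genotypes overlapped, from 21.4% to 31.9% and from 22.5% to 35.9%. Among these Slc32a1-positive cells, 17.7% ± 8.41 also held Slc17a6 in control and 64.0% ± 6.41 in Eed-cKO. When every cell was thinned to 2000 UMIs, the GABAergic-only share was 15.7% in control and 9.32% in Eed-cKO, a difference of -6.36 points, and the difference in glutamatergic-only cells changed sign to 0.415 points. At least 2 Slc32a1 UMIs left shares of 13.8% and 3.87%.

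**Figure D1:**
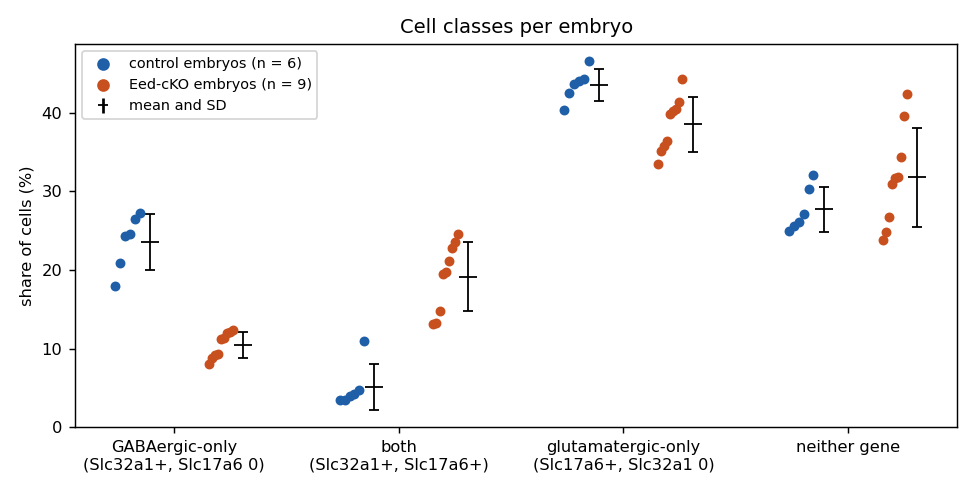
Share of cells (%) per embryo in 4 classes set by Slc32a1 and Slc17a6, for 6 control and 9 Eed-cKO embryos (points) with the mean and SD (black). The Eed-cKO embryos sit at 8.11% to 12.4% in the GABAergic-only class, under all control embryos at 17.9% to 27.3%.

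Expression was then compared on UMIs summed over the GABAergic-only cells of each embryo, given as CPM (a gene's UMIs divided by all UMIs of the embryo's GABAergic-only cells, on the standard scale of that name). In such sums, fewer cells with a gene and less RNA per cell cannot be told apart. Of 11877 genes tested with edgeR's quasi-likelihood test, 570 (4.80%) were higher and 597 (5.03%) lower in Eed-cKO at a Benjamini-Hochberg adjusted p under 0.05. These 2 shares are the background for each count of list members below. With library sizes alone in place of TMM scaling, the split was 718 higher and 456 lower, and without the largest library it was 683 and 679. Among the genes called, 305 of the higher genes passed a log2 fold change of 1 and 125 of the lower genes passed -1. Of the higher genes, 25 had no control UMI. The sums held 8061912 UMIs over the control and 2991824 over the Eed-cKO embryos, and the part of this depth in the difference was not tested. In 203 of the genes tested (1.71%) no embryo of one genotype overlapped with the other, and the median log2 fold change over all genes tested was -0.01.

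The rises of largest fitted size among genes with no overlap were Hoxc10, Hoxa9, Hoxc13, Hoxb13, Hoxa5 and Vax2, and the falls were Gda, P2ry1, Cbln2, Hs3st4, Ebi3 and Nr2f1. The promoters of Hoxa5, Hoxa9, Nr2f1 and Gda are shown because they differ widely in CG content, and Polycomb is known to be recruited to CG-rich DNA. The 250 bases in front of the annotated start are given from RefSeq (GRCm38.p6), 5′ to 3′ on the gene's strand, with each CG dinucleotide in capitals. The windows lie at chr6:52204588-52204837 (minus strand, Hoxa5), chr6:52227371-52227620 (minus, Hoxa9), chr13:78198874-78199123 (minus, 1 of 2 annotated starts of Nr2f1) and chr19:21472662-21472911 (minus, Gda).
Hoxa5: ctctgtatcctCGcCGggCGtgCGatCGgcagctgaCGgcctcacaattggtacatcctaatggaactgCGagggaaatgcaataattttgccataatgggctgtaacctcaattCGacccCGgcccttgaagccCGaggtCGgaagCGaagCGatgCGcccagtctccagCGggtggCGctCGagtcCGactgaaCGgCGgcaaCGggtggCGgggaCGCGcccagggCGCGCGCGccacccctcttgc
Hoxa9: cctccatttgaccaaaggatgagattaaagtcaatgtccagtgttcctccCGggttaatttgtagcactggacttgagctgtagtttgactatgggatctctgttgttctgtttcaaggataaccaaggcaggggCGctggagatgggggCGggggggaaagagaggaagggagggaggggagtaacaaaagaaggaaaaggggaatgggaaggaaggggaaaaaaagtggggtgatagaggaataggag
Nr2f1: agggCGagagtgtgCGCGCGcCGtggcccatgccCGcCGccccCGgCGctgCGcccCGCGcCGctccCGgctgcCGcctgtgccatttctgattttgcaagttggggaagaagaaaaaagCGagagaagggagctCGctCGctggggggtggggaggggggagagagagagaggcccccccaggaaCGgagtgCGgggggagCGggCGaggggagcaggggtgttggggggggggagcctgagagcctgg
Gda: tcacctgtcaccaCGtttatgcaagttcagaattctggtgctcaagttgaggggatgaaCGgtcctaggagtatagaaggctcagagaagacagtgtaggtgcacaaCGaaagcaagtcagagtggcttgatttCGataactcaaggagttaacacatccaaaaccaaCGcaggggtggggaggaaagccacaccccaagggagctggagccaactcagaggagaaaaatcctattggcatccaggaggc
Over the 300 bases from 250 before to 50 after the start, the CG count was 29 for Hoxa5, 4 for Hoxa9, 23 for the printed start of Nr2f1, 4 for its other start and 9 for Gda. The median was 21 over the genes tested that had a promoter sequence, of which 74.4% held at least 15, and 7 over all 27025 windows in the table, of which 35.2% did. The printed stretches hold 28, 3, 22 and 5. In the GENCODE annotation the gene spans of Hoxa9, Nr2f1 and Gda reach past these windows, to 52231089, 78199757 and 21473445. The counts may therefore not cover the outermost starts of these genes. A comparison of the called sets as a whole was void, since only 77.9% of the higher and 78.4% of the lower genes had a promoter sequence in the table.

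Hox genes gave the sharpest difference between the genotypes. None of the 17 Hox genes tested had a single UMI in the 1333 control cells, and 9 of them were detected in every mutant embryo. All 17 passed the minimum for a test through the mutant embryos alone, so that their direction was fixed by that minimum, and nothing is read from their count beside the 4.80% of all genes. Of the 34 Hox genes in the table, 33 had no control UMI, and the exception was 1 UMI of Hoxb1, which had none in Eed-cKO. Summed over the Hox genes, the level was 0 to 0.654 CPM in control embryos and 445 to 767 CPM (median 564) in Eed-cKO embryos. Set against a floor of 3 UMIs over all control cells (0.372 CPM), the 17 genes were at least 27.8-fold to at least 216-fold higher. The table of counts does not say whether strand was used, and Hoxc10 shares exonic sequence with Hoxc5, and Hoxa9 with Mir196b, so that these pairs are uncertain.

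Hoxc10, a posterior Hox gene of the lumbar cord (GRCm38, chr15:102966796-102971893), was the largest rise. It had no UMI in any control embryo and 58.6, 82.7 and 134 CPM as the lowest, median and highest of the 9 mutant embryos (at least 216-fold, adjusted p = 1.38e-16, edgeR quasi-likelihood test). Hoxb13, the most posterior gene of its cluster (chr11:96194316-96197447), ran from 19.1 to 70.1 CPM in the mutant (at least 129-fold, adjusted p = 1.06e-13), and Hoxa5, a gene of the cervical level (chr6:52201754-52204587), ran from 9.77 to 70.9 CPM (at least 119-fold, adjusted p = 1.07e-11). Genes of both anterior and posterior position were therefore read in the same sums. Vax2, an anterior homeobox gene of the ventral forebrain and eye (chr6:83711264-83738313), shared this pattern with no control UMI and 17.6 to 75.4 CPM in Eed-cKO (at least 93.4-fold, adjusted p = 8.78e-12). Like the Hox genes, it passed the minimum for a test through the mutant alone, so that its direction was fixed by that minimum.

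At the level of single cells, 316 of 581 Eed-cKO cells and 1 of 1333 control cells held a UMI of any Hox gene. The share per embryo was 55.1% ± 7.03 (SD, n = 9, from 45.3% to 64.3%) against 0.0667% ± 0.163 (n = 6), with an adjusted p of 0.00266 over 20 gene sets (exact two-sided permutation test). In the mutant cells removed as non-neural the share was 26.8%, at a median of 5335 UMIs per cell. Among the cells classed as GABAergic-only after thinning to 2000 UMIs, the share per Eed-cKO embryo was 58.5% ± 16.3 (SD, n = 9, from 44.6% to 100%). Pooled over embryos, these were 287 of 529 cells in Eed-cKO and 0 of 890 cells in control. The control count allows a share of up to 0.337% (a count of 3, for counting error only). In Eed-cKO, 45.6% of the cells held no Hox gene, 14.5% held 1, 19.1% held 2 to 4 and 20.8% held 5 or more.

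Within PRC2 itself, 1 of the 11 genes tested rose and 1 fell (2 without Eed-cKO embryo 6). Eed had 22.6, 31.1 and 34.8 CPM as the lowest, median and highest control values and 4.89, 18.9 and 45.3 CPM in Eed-cKO, and the genotypes overlapped (log2 fold change -0.60 ± 0.24 SE, adjusted p = 0.114, edgeR quasi-likelihood test). This value does not check the genotype, since the floxed exons lie inside the gene and the reads were counted from its 3′ end. E130012A19Rik, the gene of the PRC2 cofactor Epop, rose from 1.00 ± 0.92 to 9.56 ± 6.25 CPM (log2 fold change 3.25, adjusted p = 7.19e-05), and Rbbp7, a histone-binding subunit, fell from 185 ± 14.04 to 153 ± 32.4 CPM (log2 fold change -0.40, adjusted p = 0.0131). The catalytic subunit Ezh2 had a log2 fold change of 0.22 ± 0.16 (adjusted p = 0.466) and Suz12 one of 0.00 ± 0.16 (adjusted p = 0.997).

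Of the cyclin-dependent kinase inhibitors, which hold cells out of the cell cycle, Cdkn1c and Cdkn1b rose among the 4 tested that had control UMIs, and none fell. Cdkn2b, a known Polycomb target that passed the minimum through the mutant alone, had no control UMI and 0, 15.1 and 25.1 CPM as the lowest, median and highest mutant values (at least 37.7-fold, adjusted p = 2.56e-07, edgeR quasi-likelihood test). Cdkn1c rose from 95.2 ± 26.4 to 191 ± 114 CPM (adjusted p = 0.000889) and Cdkn1b from 85.9 ± 13.2 to 137 ± 35.9 CPM (adjusted p = 0.00175). Cdkn2a, the neighbour of Cdkn2b, had 0 control and 13 mutant UMIs, and Cdkn2c 0 and 17, both under the minimum for a test. Cdkn1a, the target of p53 signalling, had a log2 fold change of -0.12 ± 0.19 (adjusted p = 0.779).

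The genes that make GABA were lower in these cells, of which 60.4% in Eed-cKO and 41.9% in control held only 1 Slc32a1 UMI. Cells with Gad1 or Gad2 made up 94.9% in control and 92.3% in Eed-cKO (adjusted p = 0.502, exact two-sided permutation test). The shares were 85.6% and 75.1% after thinning (adjusted p = 0.0110, exact test). With at least 2 UMIs asked for, they were 88.6% and 77.8% (adjusted p = 0.0333, exact test). Gad1 had 847, 966 and 1062 CPM as the lowest, median and highest control values and 547, 695 and 912 CPM in Eed-cKO (log2 fold change -0.50 ± 0.10, adjusted p = 0.000474, edgeR quasi-likelihood test), so that the highest mutant embryo lay above the lowest control. Gad2 had 372, 428 and 464 CPM in control and 248.9, 272 and 426 CPM in Eed-cKO, where 8 of 9 mutant embryos lay under all controls (log2 fold change -0.60 ± 0.10, adjusted p = 7.75e-05). Both genes fell, and Abat, the enzyme that breaks GABA down, rose from 130 ± 13.8 to 180 ± 30.1 CPM (adjusted p = 0.00536). In all, 1 of the 12 genes tested for GABA synthesis, transport and chloride was higher and 3 were lower, with a median log2 fold change of -0.30, and 5 were lower without Eed-cKO embryo 8. The third lower gene, the GABA transporter Slc6a11 (log2 fold change -0.60, adjusted p = 0.0423), missed the threshold without any 1 of 9 of the 15 embryos, with log2 fold changes of -0.61 to -0.52. Chloride is kept low by the transporter Slc12a5, at 254 ± 33.4 and 214 ± 42.4 CPM (adjusted p = 0.0898), which was not past the threshold.

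Transcription factors of forebrain GABAergic neurons were lower more often than higher. Of 24 tested, 9 were lower and 1 was higher, beside 5.03% and 4.80% of all genes, with a median log2 fold change of -0.18. Nr2f1, also known as Coup-TF1, a nuclear receptor that patterns the forebrain (chr13:78188973-78199757), had 231, 295 and 375 CPM as the lowest, median and highest control values and 80.6, 95.7 and 126 CPM in Eed-cKO, with no overlap (log2 fold change -1.62 ± 0.12, adjusted p = 1.28e-12, edgeR quasi-likelihood test). Its relative Nr2f2 (chr7:70351944-70366735) had 467, 552 and 727 CPM against 186, 272 and 358 CPM, again with no overlap (log2 fold change -1.08 ± 0.12, adjusted p = 5.34e-08). Both genes overlap antisense transcripts whose reads could not be told apart.

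Dlx1, an early selector of forebrain GABAergic fate, had 336, 501 and 541 CPM in control and 171, 231 and 371 CPM in Eed-cKO (log2 fold change -0.93 ± 0.14, adjusted p = 5.90e-06, edgeR quasi-likelihood test), with overlap between the lowest control and the highest mutant embryos. Dlx1 overlaps the antisense transcript Dlx1as, whose reads could not be told apart. Esrrg, an orphan nuclear receptor, fell from 76.3 ± 24.3 to 24.97 ± 18.02 CPM (log2 fold change -1.42, adjusted p = 0.000123). Other members of the Dlx family did not follow Dlx1 past the threshold, with Dlx2 at 121 ± 27.5 and 114 ± 25.7 CPM (adjusted p = 0.796) and Dlx5 at a log2 fold change of -0.21 ± 0.16 (adjusted p = 0.484), genes that were named after their values were seen. Cells with any of Dlx1, Dlx2, Dlx5 and Dlx6 made up 75.4% ± 3.95 in control and 57.5% ± 8.72 in the mutant (adjusted p = 0.00571, exact two-sided permutation test, n = 6 and 9), while non-neural cells gave 9.14% and 10.6%. Thinned to 2000 UMIs the shares were 59.0% and 37.8%.

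Of 11 transcription factors tested that mark GABAergic neurons of the hindbrain and spinal cord, 5 were higher and none lower, with a median log2 fold change of 1.14, and since Tfap2a, Tfap2b, Pax2, Pax8 and Lhx5 had been picked by the study from these samples, the count is not independent evidence of the direction. Tfap2b, an AP-2 factor (chr1:19208914-19238576), had 1 UMI in all control cells and 265 in Eed-cKO, where the lowest, median and highest embryos had 0, 78.0 and 163 CPM (ratio of pooled CPM 714, 95% counting interval 127 to 28310, adjusted p = 5.65e-14, edgeR quasi-likelihood test). Its relative Tfap2a had 2 and 46 UMIs (ratio 62.0, interval 16.2 to 527, adjusted p = 3.11e-07). Both AP-2 genes passed the minimum for a test almost wholly through the mutant embryos. The intervals cover counting error only.

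Tal1, a basic helix-loop-helix factor of inhibitory neurons in the midbrain and cord (chr4:115056426-115071755), was present in control and higher in the mutant. It had 6.96, 11.6 and 24.4 CPM as the lowest, median and highest control values and 73.3, 102 and 171 CPM in Eed-cKO, with no overlap (8.89-fold, log2 fold change 3.15 ± 0.22, adjusted p = 2.01e-13, edgeR quasi-likelihood test). Gata3, which acts with Tal1 in such neurons, had 4.67, 26.5 and 47.8 CPM in control and 0, 48.8 and 97.3 CPM in Eed-cKO (log2 fold change 1.14 ± 0.29, adjusted p = 0.00796), with wide overlap. Reads of Gata3 could not be told from those of other transcripts that share its exonic sequence. En1, a midbrain and hindbrain homeobox gene, rose from 3.18 ± 4.46 to 17.5 ± 10.9 CPM (log2 fold change 2.24, adjusted p = 0.00329), and the log2 fold change was 3.54 without control embryo 2, the highest control embryo.

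**Figure D2:**
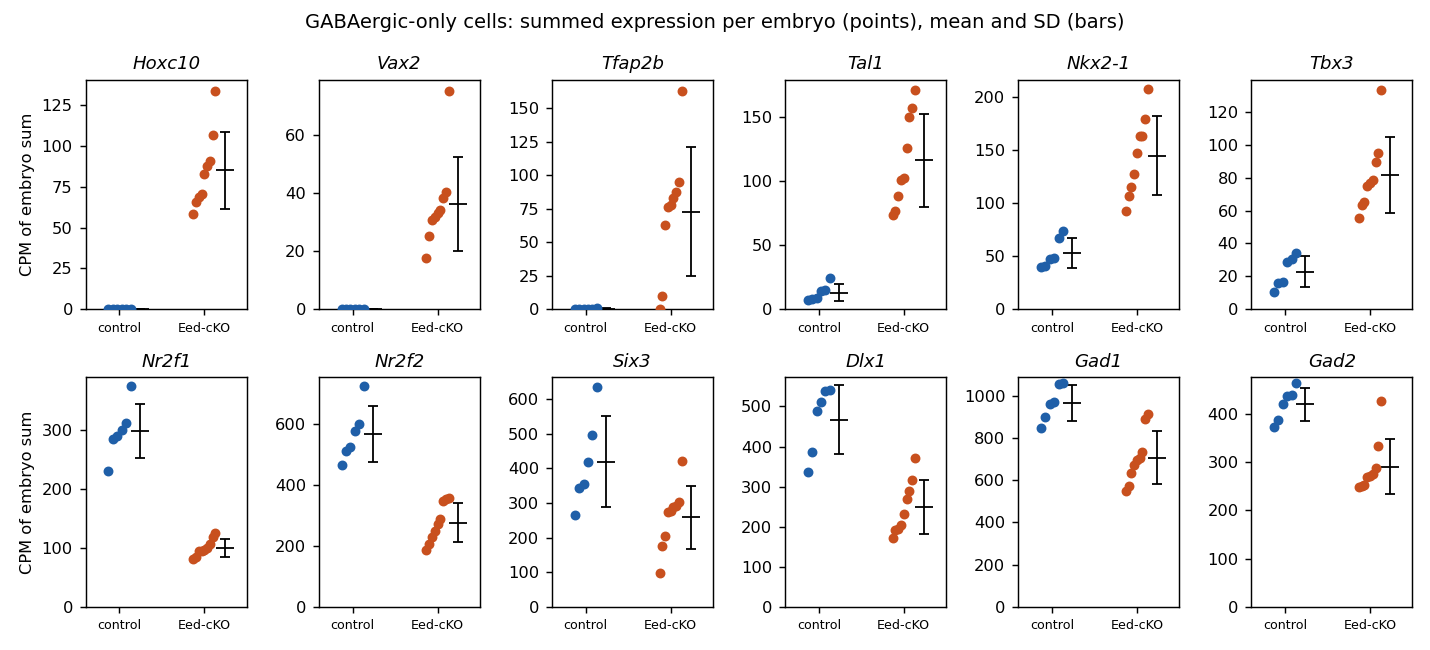
Summed expression (CPM of the embryo's GABAergic-only cells) of 12 genes, with a point per control (n = 6) or Eed-cKO (n = 9) embryo and the mean and SD beside it. Hoxc10 and Vax2 sit at 0 in every control embryo, Tal1, Nkx2-1 and Tbx3 lie higher and Nr2f1 and Nr2f2 lower in every Eed-cKO embryo than in any control embryo.

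Patterning factors of the hypothalamus moved in both directions. Of 20 tested, 6 were higher and 3 lower, beside 4.80% and 5.03% of all genes. Among the 6 higher was Vax2, which was tested through the mutant alone. Nkx2-1, which specifies the ventral hypothalamus (chr12:56531958-56536908), had 39.8, 47.6 and 73.5 CPM as the lowest, median and highest control values and 92.5, 148 and 208 CPM in Eed-cKO (log2 fold change 1.48 ± 0.16, adjusted p = 1.74e-08, edgeR quasi-likelihood test). Tbx3, a factor of the arcuate and tuberal region (chr5:119670669-119684724), had 10.4, 22.7 and 33.9 CPM in control and 55.5, 76.6 and 133 CPM in Eed-cKO (log2 fold change 1.81 ± 0.21, adjusted p = 9.67e-08). Neither gene overlapped between the genotypes. Onecut2 rose from 136 ± 17.4 to 278 ± 112 CPM (adjusted p = 8.73e-05), also without overlap. Six3, an anterior forebrain gene (chr17:85613608-85629302), had 266, 386 and 635 CPM in control and 97.7, 276 and 421 CPM in Eed-cKO (log2 fold change -0.79 ± 0.16, adjusted p = 0.000992), and the embryos overlapped. Tbx3 and Six3 each overlap an antisense transcript.

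Among 23 neuropeptides tested, 2 were higher and 6 lower, with 1 higher without Eed-cKO embryo 1 and 4 without control embryo 5. Over all genes, 4.80% were higher and 5.03% lower. Nts, or neurotensin, had 43.8, 135 and 174 CPM as the lowest, median and highest control values and 0, 25.2 and 72.1 CPM in Eed-cKO (log2 fold change -1.74 ± 0.27, adjusted p = 2.33e-05, edgeR quasi-likelihood test), and the lowest control embryo lay within the mutant range. Penk, which codes for enkephalin, fell from 69.2 ± 27.8 to 34.8 ± 11.6 CPM (adjusted p = 0.00160). Avp, or vasopressin, fell from 42.6 ± 43.5 to 6.38 ± 12.5 CPM (log2 fold change -2.88, adjusted p = 0.00316), with log2 fold changes of -2.24 without control embryo 4 and -3.69 without Eed-cKO embryo 9. Neither peptide gene was without overlap. Pomc, the precursor of melanocortins, had 4.52 to 9.34 CPM in control and 7.11, 16.5 and 842 CPM as the lowest, median and highest of Eed-cKO (log2 fold change 3.62 ± 0.65, adjusted p = 0.000154, and 2.91 without Eed-cKO embryo 6). Cck rose from 17.9 ± 6.96 to 40.2 ± 25.1 CPM (log2 fold change 1.204, adjusted p = 0.00753), a call that was lost without Eed-cKO embryo 1 (log2 fold change 0.92).

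Of 12 subunits of GABA receptors tested, which let a neuron respond to GABA, 7 were lower and none higher. The shares over all genes were 5.03% lower and 4.80% higher. Every log2 fold change was negative, and the median was -0.65 beside -0.01 for all genes tested. Gabrb2 fell from 312 ± 50.5 to 158 ± 47.6 CPM (adjusted p = 2.81e-06, edgeR quasi-likelihood test), and its lowest control embryo lay within the mutant range. Gabrg1 fell from 96.9 ± 19.7 to 49.8 ± 11.8 CPM (adjusted p = 4.65e-05) with no overlap.

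Genes of presynaptic release were lower more often than higher. Of 30 genes tested, 10 were lower and 1 higher, beside 5.03% and 4.80% of all genes, with a median log2 fold change of -0.32. Syt1, the calcium sensor of release, had 344, 479 and 537 CPM as the lowest, median and highest control values and 230, 319 and 401 CPM in Eed-cKO (log2 fold change -0.63 ± 0.11, adjusted p = 8.06e-05, edgeR quasi-likelihood test). Sv2a, a vesicle glycoprotein, fell from 125 ± 22.7 to 86.9 ± 18.9 CPM (adjusted p = 0.00262). The exception was Cacna2d1, an auxiliary subunit of calcium channels (chr5:15934691-16374511), which had 24.4, 38.6 and 60.9 CPM in control and 98.96, 140 and 226 CPM in Eed-cKO (log2 fold change 1.71 ± 0.17, adjusted p = 1.92e-09, no overlap).

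Of 10 general neuron markers tested, 3 were lower and none higher, beside 5.03% and 4.80% of all genes. Stmn2 fell from 3371 ± 113 to 2608 ± 170.0 CPM (log2 fold change -0.44 ± 0.07, adjusted p = 1.14e-05, edgeR quasi-likelihood test) and Gap43, a growth cone protein, from 2742 ± 167 to 2084 ± 192 CPM (adjusted p = 2.66e-05), both with no overlap. Among interneuron subtype markers, 3 of 10 tested were higher and 2 lower, beside 4.80% and 5.03% of all genes. Crabp1, which binds retinoic acid, rose from 13.5 ± 4.45 to 95.5 ± 53.4 CPM (log2 fold change 2.85 ± 0.27, adjusted p = 5.08e-10), and the calcium-binding proteins Calb1 and Calb2 fell, Calb1 from 131 ± 18.54 to 93.3 ± 66.0 CPM (adjusted p = 0.00167) and Calb2 from 129 ± 46.7 to 69.3 ± 44.9 CPM (adjusted p = 0.00193).

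Of 18 immediate early genes tested, which are induced by activity and by tissue handling, 15 were higher and none lower. The shares over all genes were 4.80% higher and 5.03% lower. The median log2 fold change of the 18 genes was 1.26. Their summed level was 467 to 936 CPM in control and 900 to 2261 CPM in Eed-cKO. Fos had 82.6, 176 and 272 CPM as the lowest, median and highest control values and 285, 397 and 692 CPM in Eed-cKO, with no overlap (log2 fold change 1.26 ± 0.19, adjusted p = 6.59e-06, edgeR quasi-likelihood test). Ier2 had 4.36, 6.11 and 13.1 CPM against 19.1, 47.0 and 112 CPM, also with no overlap (log2 fold change 2.81 ± 0.30, adjusted p = 9.37e-09). Their part in the other differences was not tested.

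Markers of other cells were also read in these sums, and their counts stand beside 4.80% higher and 5.03% lower of all genes. Of 9 astrocyte markers tested, 4 were higher and none lower, and 2 were higher without Eed-cKO embryo 6, with the summed level at 211 to 590 CPM in control and 268 to 1926 CPM in Eed-cKO. Of 4 ependymal and tanycyte markers tested, 2 were higher, Vim (62.1 ± 21.7 to 191 ± 117 CPM, adjusted p = 1.93e-06, edgeR quasi-likelihood test) and Foxj1. Of 5 cycling markers, 3 were higher, none without Eed-cKO embryo 1 and 1 without Eed-cKO embryo 5, and their summed level was 9.57 to 22.9 CPM in control and 15.1 to 111 CPM in Eed-cKO. Of 6 oligodendrocyte precursor markers, 1 was lower, Lhfpl3, and of 3 pericyte markers none passed the threshold. The 9 genes of the marker filter summed to 2.82 to 17.5 CPM and 6.27 to 97.7 CPM. Ttr, a transthyretin gene of the choroid plexus, had 7613 CPM in Eed-cKO embryo 8 and at most 4.74 CPM in every other embryo, and it had too few UMIs for a test without that embryo. The part of these cells in the differences above was not tested.

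Of 7 telencephalic markers tested, 2 were higher, beside 4.80% of all genes. Tbr1, a T-box factor of cortical glutamatergic neurons (chr2:61802930-61814114), had 0 to 3.11 CPM in control and 0, 30.7 and 63.5 CPM as the lowest, median and highest mutant values (log2 fold change 4.32 ± 0.44, adjusted p = 4.33e-09, edgeR quasi-likelihood test). Of 6 genes of glutamate handling tested, 1 was higher (Slc1a2, lost without Eed-cKO embryo 5, Eed-cKO embryo 6 or control embryo 1, with log2 fold changes of 0.42, 0.33 and 0.40) and 1 lower (Slc1a1, 75.8 ± 11.5 to 40.0 ± 20.2 CPM, adjusted p = 0.00207). Of 6 monoamine genes, 1 was lower, Slc18a2, a call that was lost without any 1 of 8 of the 15 embryos.

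**Figure D3:**
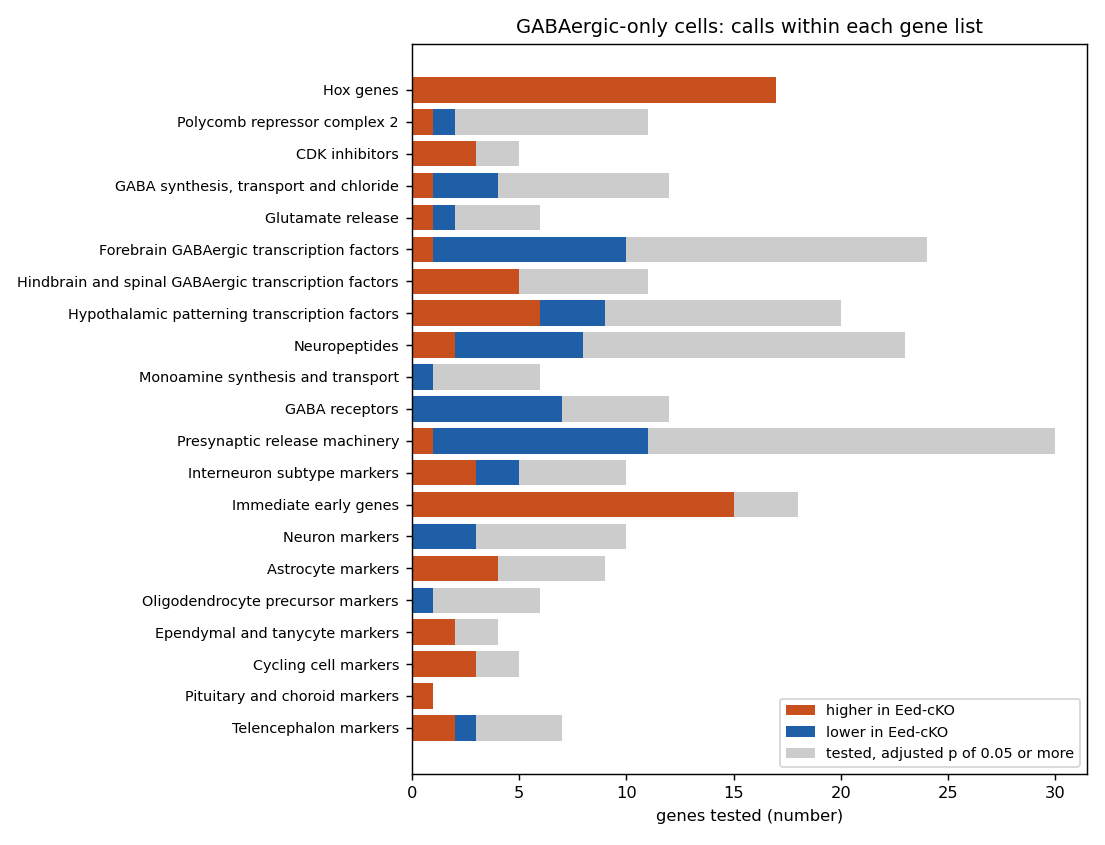
Number of genes tested in each gene list (bars) that were higher (mutant colour), lower (control colour) or not past an adjusted p of 0.05 (grey) in Eed-cKO GABAergic-only cells. All 17 Hox genes, tested through the mutant alone, and 15 of 18 immediate early genes lie higher, and 7 of 12 GABA receptor genes lie lower.

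The other falls of largest size without overlap were in genes of varied function. Gda, guanine deaminase, had 50.2, 80.7 and 103 CPM as the lowest, median and highest control values and 4.13, 20.1 and 44.9 CPM in Eed-cKO (log2 fold change -1.87 ± 0.24, adjusted p = 5.96e-07, edgeR quasi-likelihood test). P2ry1, a purinergic receptor, had 19.1 to 38.5 CPM and 0 to 16.8 CPM (log2 fold change -1.86 ± 0.35, adjusted p = 0.000314), and Cbln2, a synaptic organizer, 81.8 to 192 CPM and 15.1 to 63.7 CPM (log2 fold change -1.69 ± 0.23, adjusted p = 1.46e-06). By their choice the genotypes did not overlap in these genes. Hs3st4, a heparan sulfate sulfotransferase, fell from 109 ± 16.3 to 37.1 ± 20.6 CPM (adjusted p = 1.09e-08), and Ebi3, a cytokine subunit, from 24.3 ± 4.33 to 6.68 ± 4.80 CPM (adjusted p = 0.000248).

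Shares of cells told how widely a gene was read. Of 20 gene sets, 8 differed between the genotypes past an adjusted p of 0.05 (exact two-sided permutation test). The share with Nkx2-1 was 16.04% ± 2.23 (SD, n = 6) in control and 34.3% ± 10.3 (n = 9) in Eed-cKO (adjusted p = 0.00266, exact test), against 5.58% and 17.3% of non-neural cells, and thinning kept the order at 8.88% and 17.8%. Calb2 was detected in 24.9% ± 3.97 and 13.5% ± 6.34 (adjusted p = 0.00571, exact test), and the adjusted p was 0.206 after thinning, where the shares were 12.0% and 8.03%. Pnoc, the nociceptin precursor, was found in 28.5% ± 2.87 and 39.8% ± 9.53, beside 4.06% and 9.76% of non-neural cells. Cartpt, a feeding peptide, was found in 3.95% ± 0.59 and 12.5% ± 7.64, beside 1.02% and 7.32%, and after thinning in 5.53% of the mutant cells beside 4.07% of the mutant non-neural cells. Both missed the threshold when at least 2 UMIs were asked for.

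Other sets need their background beside them. Tfap2b was detected in 0.102% ± 0.249 of the control cells and 10.54% ± 6.03 of the mutant cells (adjusted p = 0.00699, exact permutation test, n = 6 and 9), and in 1.52% and 11.4% of the non-neural cells, so that the mutant share was at its background at full depth. Thinned to 2000 UMIs, it was 9.60% of the mutant cells and 4.34% of the mutant non-neural cells. Meis2 was found in more cells of the mutant, 33.3% ± 5.37 against 18.9% ± 3.21 (adjusted p = 0.00266, exact test), while its summed level was lower, 205 ± 58.5 against 275 ± 92.0 CPM (adjusted p = 0.00849, edgeR quasi-likelihood test), so that no order is read from it. Of markers of known hypothalamic GABAergic types, these did not pass the threshold: Agrp in 2.402% and 1.26%, Npy in 6.97% and 8.49%, Sst in 12.7% and 12.97%, the dopamine enzyme gene Th in 7.67% and 6.85% and Gal in 13.6% and 14.97% of cells.

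**Figure D4:**
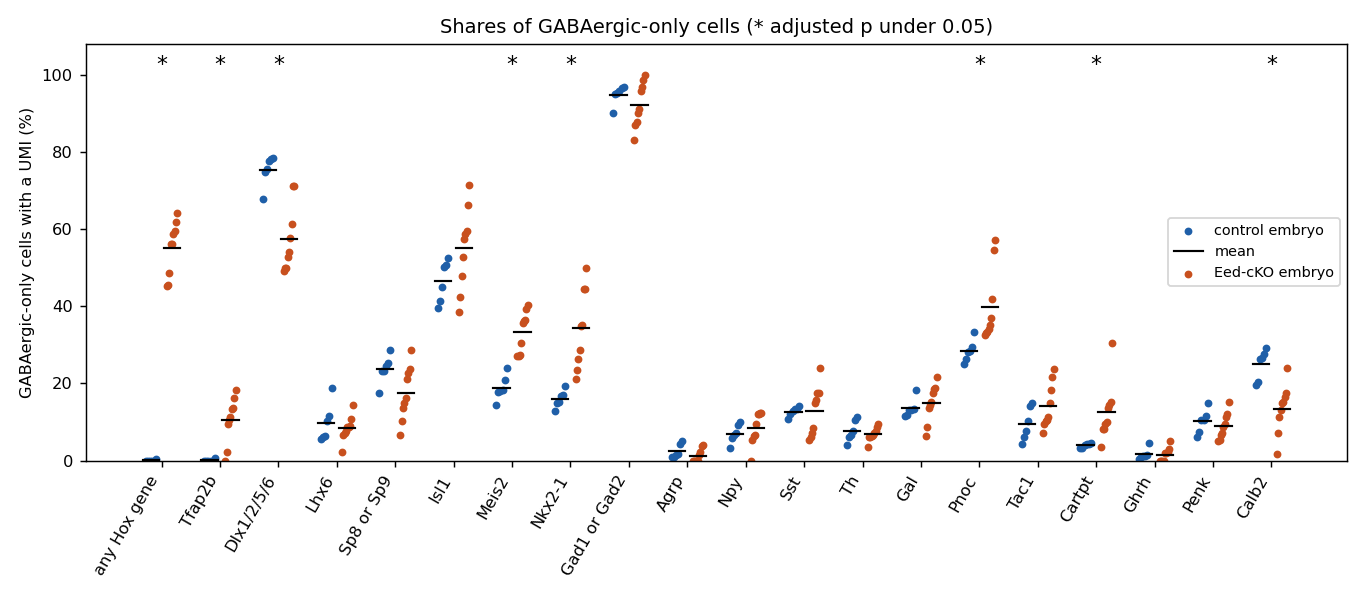
Share of GABAergic-only cells (%) in which a gene, or any gene of a set, was detected, per embryo (points, 6 control and 9 Eed-cKO) with the mean (line) and a star for an adjusted p under 0.05. Any Hox gene runs from 45.3% to 64.3% in Eed-cKO, and Dlx1, Dlx2, Dlx5 or Dlx6 falls from a mean of 75.4% to 57.5%.

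Hox and forebrain genes were read in the same mutant cells. Among Eed-cKO cells with a Hox UMI, 57.0% (180 of 316) also held a Dlx UMI, and among those without, 60.8% (161 of 265), at median depths of 4434 and 4789 UMIs. Thinned to 2000 UMIs these shares were 33.1% and 41.7%. Cells with Tfap2b held a Hox UMI in 92.6% (63 of 68), and cells without Tfap2b in 49.3% (253 of 513), and thinned in 83.9% and 50.7%. These are shares over cells pooled from 9 embryos and carry no test.

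The genotype effect was compared with that in glutamatergic-only cells, in a fit that paired both classes within each embryo. Both classes are cut by the genes of the rule, and cells with both genes were 5.16% of control and 19.2% of Eed-cKO cells. A cell with both genes in which 1 was not read falls into 1 of the classes. The part of such cells in the differences below was not tested. Of 13948 genes, 130 (0.932%) differed in their effect at an adjusted p under 0.05, 43 with a higher and 87 with a lower effect in GABAergic-only cells. Of the 27 Hox genes in this test, none passed the threshold, and of the 18 immediate early genes none, beside 0.932% of all genes. The median difference of the Hox genes was 1.21 on the log2 scale. Since 33 of 34 Hox genes had no UMI in control GABAergic-only cells, their differences of fold changes are poorly determined. Equal effects in the 2 classes are not shown for either list. Of the 24 forebrain GABAergic transcription factors, 12 had a lower effect in GABAergic-only cells and none a higher one.

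Gad1 and Gad2 moved in opposite directions in the 2 classes. In glutamatergic-only cells Gad1 rose from 48.9 ± 17.5 to 228 ± 69.6 CPM, while it fell in GABAergic-only cells (difference of log2 fold changes -2.62 ± 0.15, adjusted p = 9.85e-18, edgeR quasi-likelihood test). Gad2 rose from 27.2 ± 9.11 to 77.6 ± 19.5 CPM there (difference -2.08 ± 0.16, adjusted p = 8.58e-14). The level in GABAergic-only cells stayed above that in glutamatergic-only cells in both genotypes. Nr2f1 fell in both classes, and the difference of -0.34 ± 0.19 was not past the threshold (adjusted p = 0.660), so that its fall was not shown to be particular to GABAergic-only cells.

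The differences of largest size were in Tfap2b, Gata3, Pmaip1 and Tbr1. Tfap2b was read in control glutamatergic-only cells at 9.65 ± 8.28 CPM and in mutant ones at 60.8 ± 36.5 CPM. In GABAergic-only cells it was at 0.194 ± 0.476 CPM in control, from 1 UMI, and at 72.7 ± 47.9 CPM in Eed-cKO. The mutant levels of the 2 classes overlapped, so that the larger fitted rise in GABAergic-only cells rests on their control level near 0. Its size is uncertain for that reason (difference 6.35 ± 0.80, adjusted p = 3.89e-07, edgeR quasi-likelihood test). Without control embryo 3 the difference was 7.79, and without control embryo 6 it was 5.74. Gata3 went from 0.459 ± 0.695 to 35.1 ± 17.2 CPM in glutamatergic-only cells (difference -4.76 ± 0.49, adjusted p = 1.87e-09, and -5.50 without control embryo 4), and Tal1 from 0.630 ± 0.517 to 64.0 ± 17.6 CPM (difference -3.25 ± 0.47, adjusted p = 6.03e-06). In these, the mutant level was higher in GABAergic-only cells, but so was the control level. Tbr1 was at 24.96 ± 20.8 and 31.2 ± 16.9 CPM in glutamatergic-only cells and rose in GABAergic-only cells (difference 4.14 ± 0.45, adjusted p = 5.66e-09). Pmaip1, an apoptosis gene, was at 31.8 ± 33.5 and 34.4 ± 17.7 CPM in GABAergic-only cells and at 0.330 ± 0.277 and 12.3 ± 7.35 CPM in glutamatergic-only cells (difference -4.47 ± 0.50, adjusted p = 1.80e-08).

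**Figure D5:**
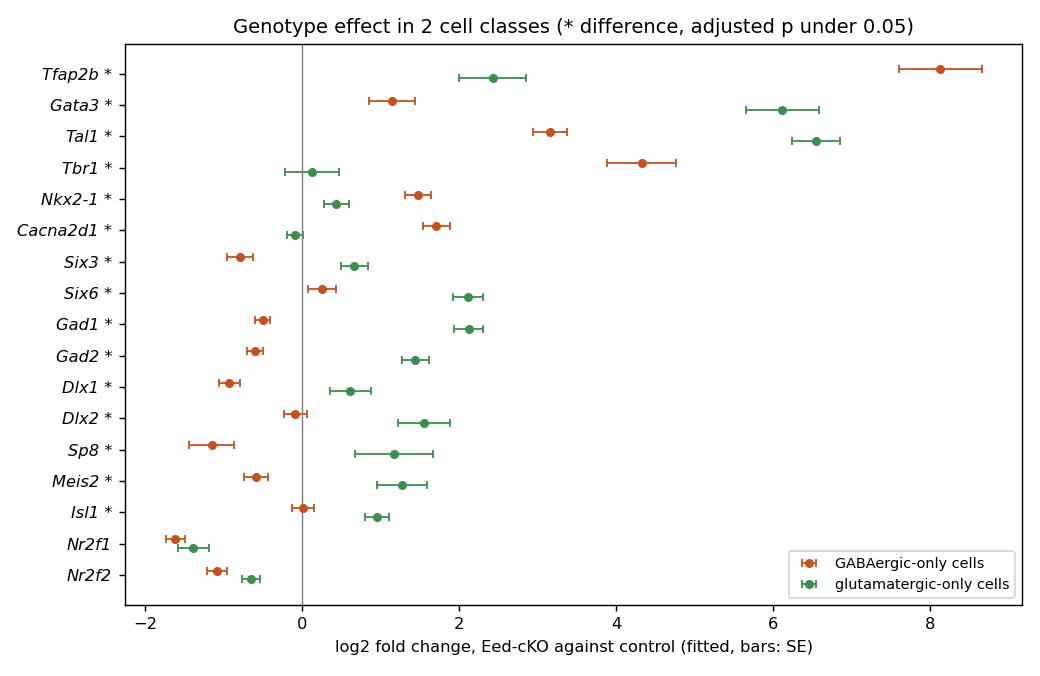
Fitted log2 fold change of Eed-cKO against control (points, with SE bars) for 17 genes in GABAergic-only and in glutamatergic-only cells, with a star where the difference between the classes had an adjusted p under 0.05, some of them genes picked after their values were seen. Gad1 and Gad2 lie under 0 in GABAergic-only and above 0 in glutamatergic-only cells, while Nr2f1 and Nr2f2 lie under 0 in both.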

How the data were processed

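Single cells of 15 hypothalami were sequenced in 48 droplet libraries. The authors aligned reads with STAR 2.5.2b and SAMtools 1.3 to mm10, per the labels, removed shallow cells, and deposited raw UMI counts per gene and cell (16510 genes). The annotation and use of strand in counting are not given in the sources used here. Other named genes, among them Tfap2a, Rbbp7 and Penk, also share exonic sequence with a transcript on the opposite strand. Genotype came from the labels. Counts were summed per embryo over GABAergic-only cells and tested with edgeR 4.0.16 (quasi-likelihood test, TMM scaling, R 4.3.3) on genes with at least 30 UMIs and a UMI in at least 5 embryos. The threshold was a Benjamini-Hochberg adjusted p of 0.05. Levels are CPM computed from the summed counts. Shares of cells with a gene or gene set were compared by exact two-sided permutation tests over embryos (scipy 1.17.1). Depth was matched by thinning cells to 2000 UMIs, and the classes were then set again on the thinned counts. Doublets were kept, and the top 6% of scores (scanpy 1.11.5) were left out as an alternative. Other alternatives were DESeq2 1.42.0, limma 3.58.1, other filters and single embryos left out. Summed depth per embryo was 52231 to 1770107 UMIs. Genes named were the 6 largest rises and falls with at least 20 CPM and no overlap, up to 5 members per list by adjusted p, all PRC2, cell cycle inhibitor and GABA synthesis genes tested, and the 4 largest differences between classes. Members and lists were chosen with earlier results of these data known. A few genes that this rule names are not reported here. The fitting step was tested on simulated data.
The p-values measure the spread between these embryos.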

Additional observations from a re-analysis of the deposited data

Results flagged for a closer look

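Of 186 groups of embryo values examined, 26 held an embryo set apart from the nearest one by more than Dixon's 95% critical value, where chance gives about 1 in 20 groups.
In Eed-cKO embryo 8, Ttr was at 7613 CPM against 4.74 in the nearest embryo, Gad2 at 426 against 333 and Calb2 at 169 against 80.3. In Eed-cKO embryo 2, which gave 14 cells, Pomc was at 842 CPM against 297 and Calb1 at 248.9 against 125. In Eed-cKO embryo 6, Tbx3 was at 133 CPM against 94.8, Gja1 at 75.5 against 31.9 and Vim at 431 against 256. Single values stood apart for Vax2 in Eed-cKO embryo 3 (75.4 CPM against 40.3), Slc18a2 in Eed-cKO embryo 4 (57.8 against 38.3) and Avp in Eed-cKO embryo 9 (39.1 against 6.19), where Cartpt was also detected in 30.4% of cells against 15.2%.
Among controls, embryo 5, which holds the largest library, had 10.99% of cells with both transporter genes against 4.75%, and 34.4% of its Slc32a1 cells held Slc17a6 against 16.3%. The same embryo had Gabrb2 at 217 CPM against 307, a Dlx gene in 67.9% of cells against 74.9%, Gad1 or Gad2 in 90.0% against 94.9% and Ghrh in 4.58% against 1.57%. Control embryo 6 had Onecut2 at 103 CPM against 135 and Gap43 at 3073 against 2718. Control embryo 3 had Tfap2b at 1.17 CPM against 0, from 1 UMI, or 0.61% of cells against 0%, and Gal in 18.3% against 13.3%. Control embryo 2 had En1 at 11.9 CPM against 3.50, and control embryo 1 had Hmgb2 at 14.4 CPM against 7.002 and a Hox UMI in 0.4% of cells against 0%.
The genotype effect differed between GABAergic-only and glutamatergic-only cells by 6.35 on the log2 scale for Tfap2b, -4.76 for Gata3, -4.47 for Pmaip1 and 4.14 for Tbr1, by the test of the difference itself in edgeR.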

How the results depend on the processing

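The count of 1167 genes past the threshold was 556 with limma-voom and its TREAT test, 2007 with libraries as samples in edgeR, 294 after thinning to 2000 UMIs, 523 with at least 2 Slc32a1 UMIs, and 256 in male and 361 in female embryos alone. It ran from 895 to 1290 with each embryo left out. It was 1098 with DESeq2. The 130 differences between classes became 259 with no filter and 68 after thinning, and 103 to 143 with each embryo left out. The difference in the GABAergic-only share ran from -14.2 to -12.3 points with each embryo left out. Signs turned for Cck with at least 2 Slc32a1 UMIs (-0.00301 on the log2 scale), for Slc1a3 after thinning (-0.34) and for the glutamatergic-only share after thinning (0.415 points), and the cause was not tested. Of 96 named genes tested, 77 were past the threshold. Of the 96, 50 stayed on the same side of the threshold under every alternative in which they were tested. Calls among these 50 kept their direction, and the 50 can include genes that were never past the threshold. The settings of single sexes and of the largest library were chosen after seeing the data. No paired analysis was possible because the groups share no animals. Depth limits low genes most in the mutant, where 1 embryo gave 14 cells.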

Other observations

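Of 446 genes of the X chromosome tested, 48 (10.8%) were lower and 13 (2.91%) higher in Eed-cKO, beside 5.03% and 4.80% of all genes tested (edgeR quasi-likelihood test), and this difference between shares was not tested. With sex as a covariate 9.64% were lower, beside 4.34% of all genes. In male embryos alone 2.16% were lower, beside 1.08%, and in female embryos alone 2.77%, beside 1.73%. Sex was not balanced between the genotypes, and the only female controls were control embryos 1 and 4.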
